A study of Mus musculus with 8 samples.

Results

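The angiopoietin and TIE receptor axis was read here through 6 genes, Angpt1, Angpt2, Tek, Tie1, Ptprb and Svep1, taken by symbol from the 18835 genes with values in the deposited table. All 6 had values, and each symbol stood for 1 gene. RNA had been sequenced from the hearts of 8 male BALB/cAJcl mice, 10 weeks old, in which myocarditis had been set off by immunization with cardiac myosin. Of these, 4 received VEGF-C C156S by intraperitoneal injection at 1 µg per day, from day 7 to day 10 after immunization, and 4 received PBS. VEGF-C C156S is a form of the lymphatic growth factor that acts through VEGFR-3. All 8 animals were immunized, so no group shows the heart without myocarditis, and hearts were taken in week 3, after the injections had ended. The labels give whole heart as the tissue, and the title speaks of lymphatic endothelial cells. The markers fixed for cardiomyocytes averaged from 17.56 to 18.07 on the log2 scale over the 8 libraries.

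The axis is a signalling system of blood and lymphatic vessels. Angiopoietin-1, made largely by cells around the vessel, activates the receptor tyrosine kinase TIE2 (the product of Tek) on endothelial cells and holds vessels quiet and tight. Angiopoietin-2 is stored in endothelial cells, is released in inflammation and mostly opposes angiopoietin-1. TIE1 is a related receptor that pairs with TIE2, VE-PTP (Ptprb) is an endothelial phosphatase that removes phosphate from TIE2 and VE-cadherin, and SVEP1 is a large matrix protein that binds TIE1 and is needed for lymphatic vessels to form.

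None of the 6 genes differed between the groups past the threshold. Across all genes 15.7% passed a limma adjusted p of 0.05, and 0 of the 6 did; among genes whose mean value lay in the range of the 6, the share was 17.5%. At an unadjusted p under 0.05 there was 1 of the 6, Ptprb, against 32.3% of all genes. The groups overlapped in every one of the 6, whereas they did not overlap in 23.0% of all genes. The median log2 fold change (VEGF-C minus PBS) of the 6 was 0.071, against 0.068 for genes in the same range of values and 0.0013 for all genes. Of the adjusted p-values in the authors' deposited table, 21.7% were under 0.05, and the 6 genes had values from 0.123 (Ptprb) to 0.863 (Tek). Because whole tissue was sequenced, fewer cells of a type and less RNA per cell cannot be told apart in any of these values.

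Libraries held 61.7 to 76.8 M reads over the genes with values in PBS and 53.7 to 65.2 M in VEGF-C. The deposited scaling divides the reads of each library by 1 factor. These factors were 1.02 to 1.23 in PBS and 0.770 to 0.943 in VEGF-C, so the groups did not overlap in them. Of the 18835 genes tested, 1328 were higher and 1621 lower in VEGF-C, and this split depends on the scaling: library totals gave 243 higher and 3572 lower, with the median of all genes at -0.19, and upper-quartile factors gave 797 and 1920. The count of all genes called was 1956 without VEGF-C replicate 1 and 1684 without VEGF-C replicate 3. The blood vessel endothelial markers averaged 12.83 to 13.11 in the PBS libraries and 12.83 to 13.08 in the VEGF-C libraries (log2), and none of the 12 was at 0 in any library. The leukocyte markers averaged 10.90 to 11.08 in PBS and 10.44 to 10.84 in VEGF-C, so these groups did not overlap; 2 of the 7 genes passed, both lower.

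Levels of the 6 genes were compared with each other per kb of exon, as normalised reads (reads divided by 1 factor per library) over the exon length. Tie1 was highest at 1920 ± 146 normalised reads per kb (SD, n = 8), followed by Tek at 1043 ± 83.4 and Ptprb at 823 ± 98.0. Svep1 stood at 218 ± 40.6, Angpt1 at 160 ± 25.6 and Angpt2 at 106 ± 12.0. The lowest library of Tie1 lay above the highest of Tek, and the lowest of Ptprb above the highest of Svep1. The neighbours Tek and Ptprb, Svep1 and Angpt1, and Angpt1 and Angpt2 had ranges that overlapped, although within a library Tek exceeded Ptprb in 8 of 8, Svep1 exceeded Angpt1 in 7 of 8, and Angpt1 exceeded Angpt2 in 7 of 8. Both receptors and the phosphatase gene stood above both ligands in every library. The length was that of all annotated exons of a gene joined, not of the transcript in use, and all 8 libraries share it. Ptprb had 13333 bases, Tie1 4917 and Tek 4712. Without division by length Ptprb had the highest mean in both groups. In PBS it was 10153 normalised reads, against 9645 for Tie1 and 4863 for Tek. The places of these 3 genes in the order thus depend on the lengths used.

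**Figure D1:**
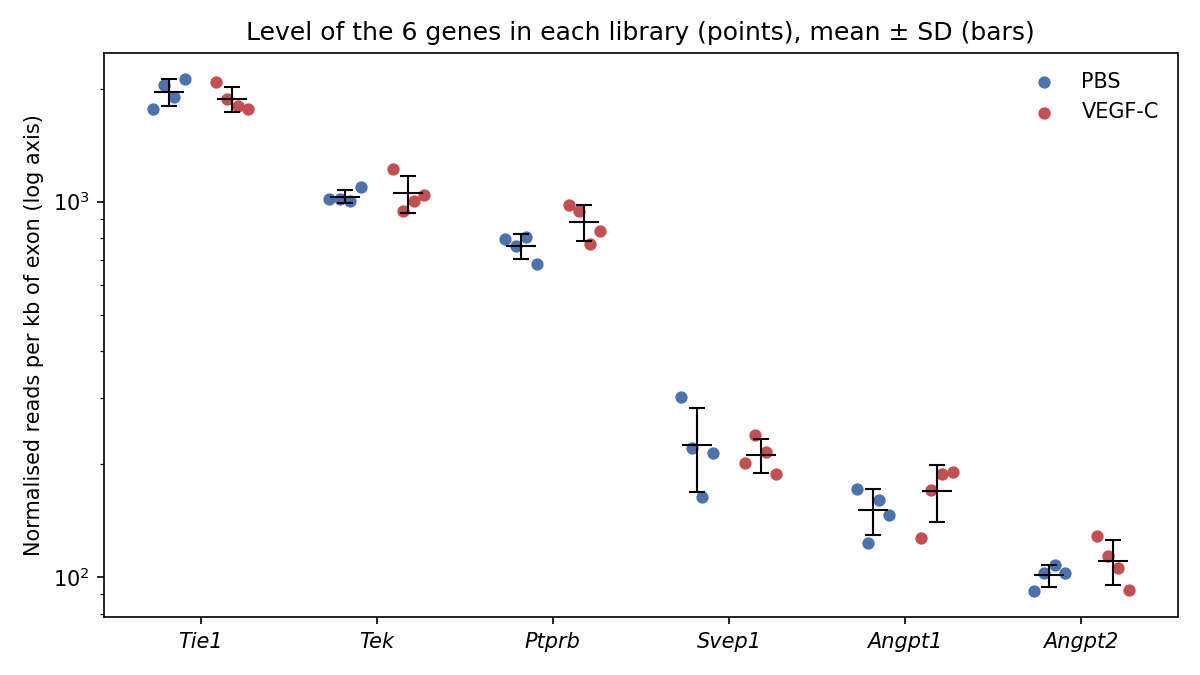
Normalised reads per kb of exon (log axis) of the 6 genes in each library, ordered by mean level, with PBS in blue and VEGF-C in red; points are libraries and bars are the mean ± SD of 4. Tie1 lies between 1762 and 2127, Angpt2 between 91.7 and 129, and the 2 colours overlap in every gene.

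Angpt1 (ENSMUSG00000022309), the activating ligand, had 896, 642, 835 and 761 normalised reads in PBS replicates 1 to 4 and 664, 890, 978 and 994 in VEGF-C replicates 1 to 4. VEGF-C replicates 3 and 4 were above every PBS library, while VEGF-C replicate 1 was the second lowest of all 8. The group means were 783 ± 110 and 881 ± 152 (SD, n = 4), which differ by 0.16 ± 0.15 (SE) in log2, with a 95% interval from -0.17 to 0.49 (limma adjusted p = 0.485). The interval runs from 0.890-fold to 1.41-fold. The log2 fold change was 0.29 without VEGF-C replicate 1, and it was 0.070 without PBS replicate 2, 0.11 without VEGF-C replicate 3 and 0.099 without VEGF-C replicate 4; none of these fits passed (lowest limma adjusted p = 0.163).

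Angpt2 (ENSMUSG00000031465), the ligand stored in endothelial cells, was the lowest of the 6, with 309 to 466 reads per library before normalisation. It had 338, 380, 398 and 378 normalised reads in PBS replicates 1 to 4, a narrow band, and 476, 421, 390 and 341 in VEGF-C replicates 1 to 4. VEGF-C replicates 1 and 2 were above all PBS libraries and VEGF-C replicates 3 and 4 fell within them. The means were 373 ± 24.9 and 407 ± 56.4 (SD, n = 4), or 0.12 ± 0.12 (SE) apart in log2, with a 95% interval from -0.16 to 0.39 (limma adjusted p = 0.557). Within that interval the change lies between 0.895-fold and 1.31-fold. The log2 fold change was 0.038 without VEGF-C replicate 1, 0.070 without PBS replicate 1 and 0.20 without VEGF-C replicate 4.

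The ratio of Angpt2 to Angpt1, a usual readout of the balance between both ligands, was taken per library from reads per kb. It was 0.532, 0.834, 0.672 and 0.700 in PBS replicates 1 to 4 and 1.01, 0.667, 0.562 and 0.485 in VEGF-C replicates 1 to 4. The VEGF-C libraries held both the highest and the lowest of the 8 ratios, and VEGF-C replicate 1 was alone in having more Angpt2 than Angpt1. The means were 0.685 ± 0.124 and 0.682 ± 0.232 (SD, n = 4), given as a description without a test.

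**Figure D2:**
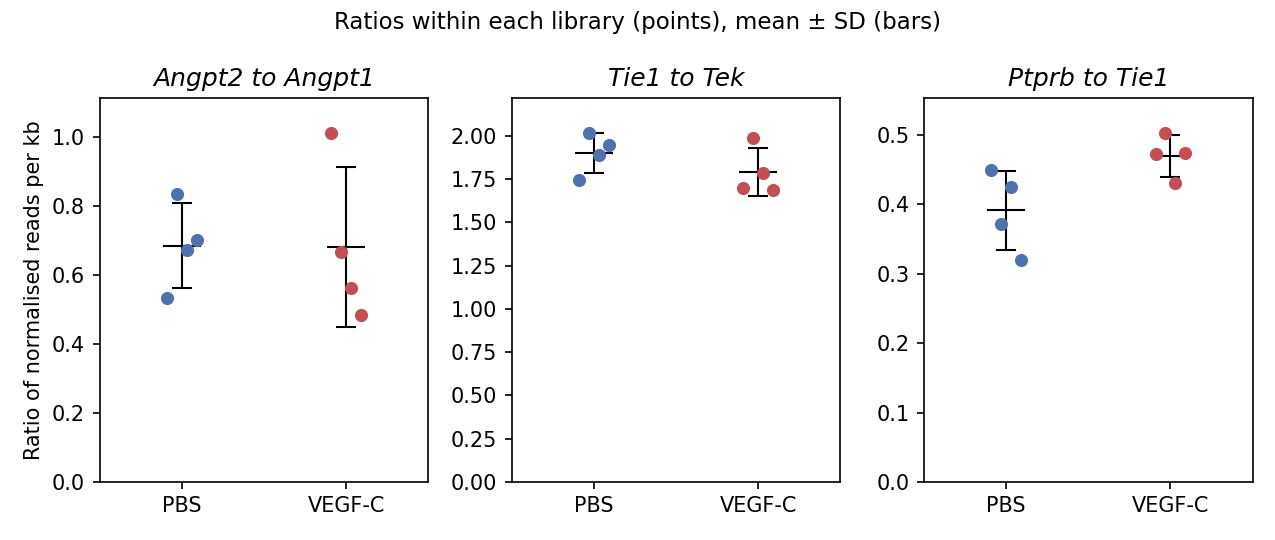
Ratios of normalised reads per kb in each library, for Angpt2 to Angpt1, Tie1 to Tek and Ptprb to Tie1; points are libraries, bars the mean ± SD of 4, and each axis starts at 0. The Angpt2 to Angpt1 ratio spreads from 0.485 to 1.01 in VEGF-C around a mean close to that of PBS, and the groups overlap in all 3 panels.

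A further angiopoietin gene, Angpt4, had lower values than any of the 6 genes, with mean log2 values of 5.99 ± 0.62 for PBS and 5.78 ± 0.27 for VEGF-C (SD, n = 4; limma adjusted p = 0.694). It was 1 of 7 measured genes in a list of other ligands, coreceptors and proteases that shed receptors. In that list 1 gene passed (14.3%), near the 15.7% of all genes. Itga9, an integrin subunit of lymphatic vessels, was higher (log2 fold change 0.32 ± 0.08), and 0 were lower. Its call was lost with library totals (limma adjusted p = 0.231) and without VEGF-C replicate 3 (0.0632). The fibronectin receptor subunits Itga5 and Itgb1, which can bind angiopoietins, had log2 fold changes of 0.30 ± 0.10 and 0.26 ± 0.09 and did not pass (limma adjusted p = 0.0586 and 0.0675).

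With both groups pooled, the receptors Tek and Tie1 had the lowest coefficients of variation of the 6 genes over the 8 libraries. These were 7.99% and 7.63%, against 18.6% for Svep1. Within the groups this differed for Tek, whose log2 SD was 0.055 in PBS and 0.16 in VEGF-C. For Svep1 it was 0.36 and 0.15, and for Tie1 0.12 and 0.11. Tek and Tie1 lie with Svep1 on chromosome 4. RefSeq start-site sequences on the GRCm38.p6 build were matched for 3 of the 6 genes, Tek, Tie1 and Svep1. The 250 bases before the start of the 2 receptor genes are shown because transcription factors of the ETS family, whose core motif is GGAA, are known to act on endothelial genes; capitals mark GGAA or, on the other strand, TTCC.
Tek, chr4:94739039-94739288, plus strand: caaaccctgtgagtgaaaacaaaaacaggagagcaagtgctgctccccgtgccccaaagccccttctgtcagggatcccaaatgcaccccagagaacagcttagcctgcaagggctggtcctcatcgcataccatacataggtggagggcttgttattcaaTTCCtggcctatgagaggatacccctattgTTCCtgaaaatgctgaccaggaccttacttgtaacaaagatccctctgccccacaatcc
Tie1, chr4:118489850-118490099, minus strand: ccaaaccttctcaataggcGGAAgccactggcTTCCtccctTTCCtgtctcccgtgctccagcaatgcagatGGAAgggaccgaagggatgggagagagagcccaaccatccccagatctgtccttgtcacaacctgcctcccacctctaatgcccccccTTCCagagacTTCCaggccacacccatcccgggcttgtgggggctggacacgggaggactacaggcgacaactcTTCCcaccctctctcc
The motif occurred 2 times before Tek and 7 times before Tie1, counted on both strands, and 6 times before Svep1. At least 1 match was found in 93.4% of 32851 windows of this length, with a median of 3; 76.8% held 2 or more and 3.82% held 7 or more. These matches are letters in a window, and no binding was measured.

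Tek (ENSMUSG00000006386), which encodes TIE2, had 4781, 4783, 4746 and 5144 normalised reads in PBS replicates 1 to 4 and 5763, 4450, 4745 and 4919 in VEGF-C replicates 1 to 4. VEGF-C replicate 1 was the highest and VEGF-C replicate 2 the lowest of all libraries. The means were 4863 ± 188 and 4969 ± 563 (SD, n = 4), and the log2 fold change was 0.025 ± 0.085 (SE), the 95% interval running from -0.16 to 0.21 (limma adjusted p = 0.867). The interval spans 0.893-fold to 1.16-fold.

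Tie1 (ENSMUSG00000033191), the partner receptor, had 8697, 10069, 9357 and 10458 normalised reads in PBS replicates 1 to 4 and 10227, 9223, 8832 and 8664 in VEGF-C replicates 1 to 4. The highest VEGF-C library was again replicate 1, and it lay below PBS replicate 4. The means were 9645 ± 779 and 9237 ± 700 (SD, n = 4), and the log2 fold change was -0.062 ± 0.083 (SE), the 95% interval running from -0.25 to 0.12 (limma adjusted p = 0.647). This interval spans 0.843-fold to 1.09-fold. Leaving out 1 library gave log2 fold changes from -0.11 (without VEGF-C replicate 1 or PBS replicate 1) to -0.022 (without PBS replicate 4). With library totals the value was -0.25 (limma adjusted p = 0.0537), beside the median of -0.19 that this scaling gives all genes. Per kb, the libraries held 1.90 ± 0.12 times as much Tie1 as Tek in PBS and 1.79 ± 0.14 times in VEGF-C (SD, n = 4), and these groups overlapped.

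Ptprb (ENSMUSG00000020154), the gene of the phosphatase VE-PTP, came closest to the threshold. It had 10589, 10164, 10770 and 9089 normalised reads in PBS replicates 1 to 4 and 13093, 12582, 10307 and 11152 in VEGF-C replicates 1 to 4. Of the VEGF-C libraries 3 were above all PBS libraries, and VEGF-C replicate 3 fell among them. The means were 10153 ± 753 and 11784 ± 1282 (SD, n = 4), which differ by 0.21 ± 0.09 (SE) in log2, the 95% interval running from 0.0043 to 0.42. The limma p was 0.0462 before adjustment and 0.147 after it. A change of this size or smaller, in either direction, was seen in 49.5% of all genes, whatever their level. The level of Ptprb was above that of 95.4% of genes, and the share among genes of like level was not taken. With library totals the log2 fold change was 0.020 (limma adjusted p = 0.907), and with the endothelial marker mean as a covariate it was 0.22 (0.0996). The ratio of Ptprb to Tie1 per kb was 0.392 ± 0.057 in PBS and 0.470 ± 0.030 in VEGF-C (SD, n = 4), where PBS replicate 1 (0.449) lay above VEGF-C replicate 3 (0.430).

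Svep1 (ENSMUSG00000028369), the matrix ligand of TIE1, varied most of the 6 genes among the PBS libraries (log2 SD 0.36), while its SD among the VEGF-C libraries was 0.15. It had 4856, 3554, 2639 and 3461 normalised reads in PBS replicates 1 to 4 and 3237, 3865, 3463 and 3035 in VEGF-C replicates 1 to 4. PBS replicate 1 was the highest and PBS replicate 3 the lowest of all 8, and every VEGF-C library lay between them. The means were 3628 ± 917 and 3400 ± 356 (SD, n = 4), which differ by -0.065 ± 0.16 (SE) in log2, the 95% interval running from -0.42 to 0.29 (limma adjusted p = 0.812). The difference was 0.086 without PBS replicate 1 and -0.21 without PBS replicate 3, with limma adjusted p = 0.668 and 0.335. In PBS replicate 1 the fibroblast markers had a mean log2 value of 14.27, and in PBS replicates 2 to 4 of 14.64 to 14.76. The blood vessel (12.83) and lymphatic (10.52) marker means were also at their lowest in PBS replicate 1. Over the 8 libraries Svep1 and the fibroblast mean had a Pearson r of -0.64 (exact permutation p = 0.114, adjusted p over 36 pairs = 0.814). Without PBS replicate 1 and VEGF-C replicate 4 it was 0.46. The part of these marker means in the Svep1 value was not tested.

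**Figure D3:**
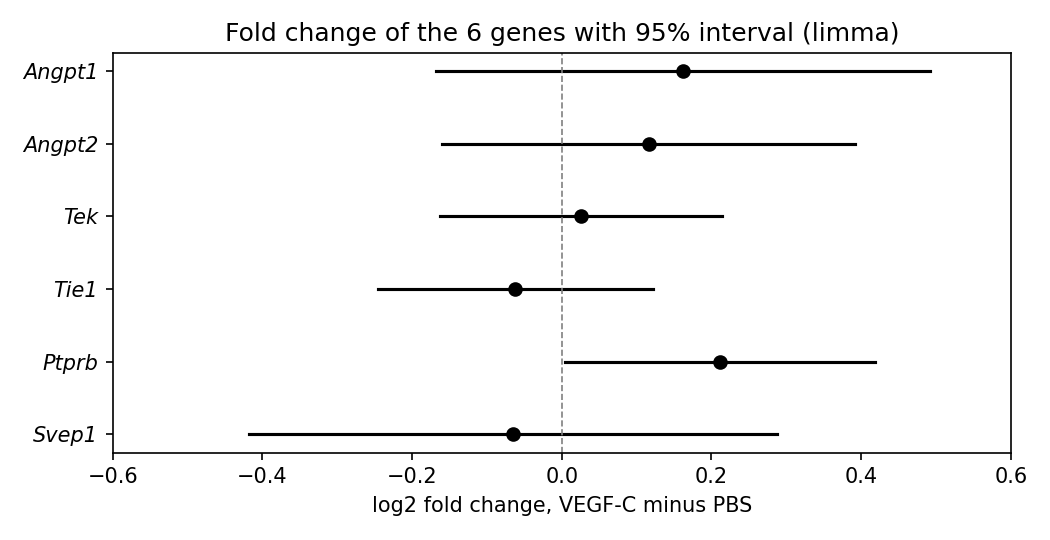
Log2 fold change (VEGF-C minus PBS) of the 6 genes from limma, with points for the estimate and lines for the 95% interval; the dashed line marks no change. All intervals but that of Ptprb (0.0043 to 0.42) contain 0, and the widest is that of Svep1 (-0.42 to 0.29).

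Of the 15 pairs among the 6 genes, none was correlated over the 8 libraries after adjustment over the pairs. The closest was Angpt1 with Tie1, in opposite directions (Pearson r = -0.88, exact permutation p = 0.00558, adjusted p = 0.0837; Spearman rho = -0.88, exact permutation p = 0.00724, adjusted p = 0.109). Without PBS replicate 2 and VEGF-C replicate 1, the libraries farthest from the median of Angpt1, r was -0.91. Tek and Tie1 had r = 0.56 (exact permutation p = 0.148, adjusted p = 0.512). Their rho was 0.45 (exact permutation p = 0.267, adjusted p = 0.771). Without PBS replicate 4 and VEGF-C replicate 1, the libraries farthest from the median of Tek, r was -0.22. Leaving these out narrows the range of Tek, so the value cannot show what the r of 0.56 rests on. Of the 36 pairs of a gene with a marker mean, the smallest adjusted p was 0.795. It was reached by the blood vessel endothelial mean with Angpt1 (Pearson r = -0.76, exact permutation p = 0.0381) and Angpt2 (0.71, 0.0441). With Tie1 that mean had r = 0.67 (exact permutation p = 0.0854, adjusted p = 0.814). No correlation was taken within a group of 4 libraries.

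Among 9554 genes with a mean CPM of at least 10, the gene most like each of the 6 by Pearson r over the 8 libraries was Ifrd1 for Angpt1 (r = 0.96), Naa38 for Angpt2 (0.97), Dhrs7 for Tek (0.93), Smco4 for Tie1 (0.91), Dynlrb1 for Ptprb (0.96) and Usp20 for Svep1 (0.96). The next were Mphosph10 and Uhrf1bp1l for Angpt1 (0.96 each), Coa3 (0.96) and Prxl2b (0.96) for Angpt2, and Vgll4 (0.87) and Myct1 (0.86) for Tek. For Tie1 they were Smim3 and Rbck1 (0.90 each), for Ptprb Hsdl1 and Tmem192 (0.96 each), and for Svep1 Miga2 (0.93) and Tnnt1 (0.92). Each was picked as highest out of 9554 values over 8 libraries that share their scaling factors, so these are descriptions only. None of these 18 genes passed the test between the groups.

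Of the 20 genes that carry or answer TIE2 signals inside the cell, 7 passed as higher and 2 as lower in VEGF-C, while 11 did not pass; of all genes 7.05% were higher and 8.61% lower. The median log2 fold change was 0.18, against 0.068 for genes in the range of values of the 6. These genes act downstream of many receptors and in most cells of the heart, so their values are not specific to the TIE receptors. Under upper-quartile factors 4 were higher and 2 lower, and with library totals 2 were higher and 2 lower. The cardiomyocyte markers averaged 17.56 to 17.84 in PBS and 17.85 to 18.07 in VEGF-C (log2), without overlap, with positive fold changes in 6 of 7 and a median of 0.34; their part in the values of this list was not tested.

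Those higher with the smallest p were Rac1, a small GTPase of the actin cytoskeleton (0.35 ± 0.06, limma adjusted p = 0.00540), Ptpn11, the phosphatase SHP2 that docks on activated receptors (0.55 ± 0.09, 0.00551), and Rhoa, a small GTPase of cell contraction (0.36 ± 0.07, 0.00734). Ptpn11 went from 14302 ± 1680 to 20806 ± 1223 normalised reads (SD, n = 4). Under library totals Rac1 and Rhoa missed the threshold (limma adjusted p = 0.102 and 0.118). The other 4 higher, named outside the rule for named genes, were the transcription factor Foxo3, the kinase genes Akt1 and Pik3ca and the adaptor Grb2; the call was lost in 10 of 18 alternative fits for Akt1 and Grb2 and in 9 for Pik3ca, each time including library totals.

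Those lower were Dok2, an adaptor that binds TIE2 and is also found in blood cells, and Tnip2, an inhibitor of NF-kB known as ABIN2 (named outside the rule). Dok2 fell from 1096 ± 59.9 to 691 ± 60.4 normalised reads (SD, n = 4), a difference of -0.66 ± 0.09 (SE) in log2 (limma adjusted p = 0.00180). The leukocyte markers had summed normalised reads of 23813 to 28011 in PBS and 20074 to 23265 in VEGF-C, with negative fold changes in 5 of 7 and positive ones in 2; their part in the fall of Dok2 was not tested. Tnip2 fell by 0.51 on the log2 scale (limma adjusted p = 0.00747). Both calls held in all 18 alternative fits.

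The genes of this list fixed by name did not pass. Foxo1, the transcription factor that TIE2 signalling keeps out of the nucleus and that drives Angpt2, had a log2 fold change of 0.19 ± 0.07 with a 95% interval from 0.02 to 0.35 (limma adjusted p = 0.112). Nos3, the endothelial nitric oxide synthase, had 0.17 ± 0.09 (0.229), and Klf2, a transcription factor of vessels under flow, had -0.29 ± 0.26 (0.469). The signs of Foxo1 and Nos3 changed with library totals.

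Among 7 angiopoietin-like genes, whose proteins resemble angiopoietins but do not bind TIE2, Angptl4 was lower and 0 were higher. Angptl4, an inhibitor of lipoprotein lipase, fell from 2380 ± 866 to 981 ± 257 normalised reads (SD, n = 4), a difference of -1.25 ± 0.25 (SE) in log2 (limma adjusted p = 0.00912), and the call held in all 18 alternative fits. Of 6 measured phosphatase genes related to Ptprb or acting on endothelial receptors, Ptprm, a receptor phosphatase of endothelial contacts, was higher (0.38 ± 0.11, limma adjusted p = 0.0378) and 0 were lower. That call was lost in 9 of 18 alternative fits, library totals among them (limma adjusted p = 0.213). The shares passing in the angiopoietin-like and phosphatase lists, 14.3% and 16.7%, were near the 15.7% of all genes.

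In the junction and activation lists 11.1% and 10% of the genes passed, near the 15.7% of all genes for lists this short. Of 9 junction genes Jup, the gene of plakoglobin, was higher (0.47 ± 0.10, limma adjusted p = 0.0124) and 0 were lower; Cdh5, the VE-cadherin gene and a partner of VE-PTP, had 0.22 ± 0.10 and did not pass (0.146). Jup is also abundant in the junctions of cardiomyocytes. Of 10 genes of endothelial activation and leak Vwf, whose protein fills the granules that store angiopoietin-2, was higher (0.64 ± 0.14, 0.0158) and 0 were lower. Under library totals Jup and Vwf missed the threshold (limma adjusted p = 0.0576 and 0.0552).

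In the list of 12 blood vessel endothelial markers the TGF-beta coreceptor gene Eng was higher (0.49 ± 0.08, limma adjusted p = 0.00426) and Egfl7, a secreted vessel protein, lower (-0.92 ± 0.14, 0.00319), both in all 18 alternative fits; 2 of 12 is near the share of all genes. Pecam1 (0.16 ± 0.08, limma adjusted p = 0.214) and Kdr (0.11 ± 0.14, 0.648) did not pass, and the signs of both changed with library totals. The lymphatic list had 2 of 9 higher (22.2%, against 15.7% of all genes), Itga9 and Flt4 (0.40 ± 0.12, limma adjusted p = 0.0481), and 0 lower. The call of Flt4 was lost in 11 of 18 alternative fits (limma adjusted p up to 0.267).

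Of the cells that can supply Angpt1, pericytes and smooth muscle had 0 of 10 markers past the threshold. At an unadjusted p under 0.05 there were also 0. With library totals Mcam and Myh11 passed as lower (limma adjusted p = 0.0268 and 0.0408). Acta2, named outside the rule, had 0.48 ± 0.23 (limma adjusted p = 0.177) and passed as higher without PBS replicate 4. Tagln averaged only 56.4 normalised reads in PBS and 47.3 in VEGF-C. Pdgfrb, the pericyte receptor, stood at -0.043 ± 0.19 in log2 (limma adjusted p = 0.902). Among 8 fibroblast markers Col1a1 was higher (0.69 ± 0.14, limma adjusted p = 0.00926), 0 were lower, and Pdgfra had -0.21 ± 0.09 (0.145), passing as lower with library totals (0.0107). Of 7 cardiomyocyte markers Actn2 was higher (0.61 ± 0.12, limma adjusted p = 0.0101) and 0 were lower. The leukocyte genes that were lower were Cd79a (-1.56 ± 0.36) and Ptprc (-0.66 ± 0.16), with limma adjusted p = 0.0186 and 0.0229. The call of Cd79a was lost without VEGF-C replicate 3 (0.0526), and that of Ptprc without PBS replicate 3, VEGF-C replicate 2 or VEGF-C replicate 3 (up to 0.0575) and in a fit without a variance trend. The other 5 leukocyte markers, named outside the rule for named genes, did not pass. Cd3e of T cells had 0.40 ± 0.21 (limma adjusted p = 0.211) and Itgam -0.50 ± 0.17 (0.0701). The macrophage genes Adgre1, Cd68 and Csf1r had 0.14 ± 0.12 (0.446), -0.048 ± 0.14 (0.850) and -0.18 ± 0.08 (0.135). With library totals Itgam and Csf1r passed as lower (limma adjusted p = 0.0181 and 0.00790), and Itgam also passed without VEGF-C replicate 2. The shares passing were 12.5% of fibroblast, 14.3% of cardiomyocyte and 28.6% of leukocyte markers, against 15.7% of all genes.

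**Figure D4:**
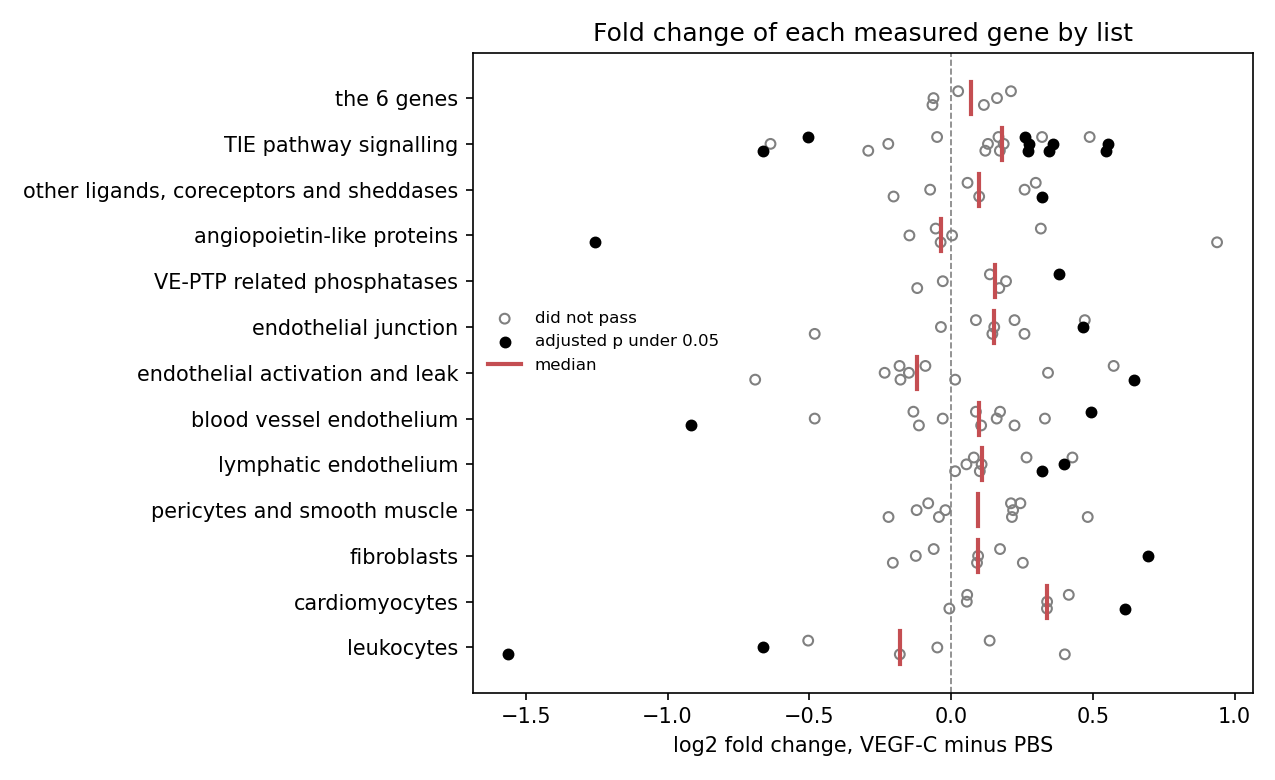
Log2 fold change (VEGF-C minus PBS) of each measured gene in the 6 genes of the axis and in 12 lists around it; filled points passed an adjusted p of 0.05 in limma, open points did not, and red bars are list medians. The 6 genes lie between -0.065 and 0.21 with no filled point, and the signalling list below them has 9.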

How the data were processed

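RNA from 8 hearts (RIN above 8.0, stranded mRNA libraries) was sequenced, per the labels' protocols. The submitters' processing notes list build GRCm39, DESeq2 1.38.3, Subread 2.0.1, featureCounts, STAR 2.7.10a and Trim Galore 0.6.10; the sources used here do not give the settings, the strand setting or the annotation release. The authors deposited log2 values, which equal log2(x + 4) with x the reads over 1 library factor, and 100% of values came out as whole reads (tolerance 0.01 reads). A fold change on this scale understates that of genes with few reads. The authors' deposited table also gives a log2 fold change and an adjusted p-value per gene. Column names give the group and a number tied to no animal; replicate numbers here are those column numbers, and each column was counted as 1 animal, so p-values measure the spread between these libraries.

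limma 3.58.1 (R 4.3.3) was fitted to all 18835 genes with treatment as the factor and moderated variances that follow the mean; p-values are two-sided, adjusted by Benjamini-Hochberg over all 18835, with a threshold of 0.05. In simulated data of 18835 genes with 200 changed 2-fold it recovered 99% of these. The simulation gave every gene the same spread beyond counting noise, and changed only genes above a minimum mean count. The 99% therefore does not carry over to genes that vary more between libraries. Recovery of smaller changes, such as those of the 6 genes, was not tested. Exon lengths came from GENCODE M21 by gene ID and matched 98.0% of genes. Promoter sequences are RefSeq's, on another build than the values. The 6 genes and the 12 lists (114 entries) were chosen with earlier results of these data known; 1 further list entry is not reported here. Named were the 6 genes, 8 genes fixed by name, up to 4 genes past the threshold with the smallest p in each list, and the 3 genes most like each of the 6. Alternatives were other scalings, pseudocounts of 1 and 16, a filter (CPM of at least 1 in 4 libraries), other variance models, limma-voom, an endothelial covariate and leaving out each library.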

Additional observations from a re-analysis of the deposited data

Results flagged for a closer look

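In 20 groups of 4 libraries (each of the 6 genes and 4 ratios, by treatment), 2 had a library set apart from the other 3 by most of the group's range; about 1 in 20 groups is set apart in this way by chance. Tek was at 12.33 on the log2 scale in PBS replicate 4, while the other PBS libraries lay within 12.21 to 12.23, and all 4 were inside the range of the VEGF-C libraries. The log2 ratio of Ptprb to Tek per kb was -0.0012 in VEGF-C replicate 2, against -0.38 to -0.32 in the other VEGF-C libraries.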

How the results depend on the processing

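None of the 6 genes passed in any of the 18 alternative fits. Of the 108 values these fits gave for them, 102 kept the sign and 6 changed it: Angpt1 (-0.029), Angpt2 (-0.074) and Tek (-0.17) with library totals, Tek with upper-quartile factors (-0.030), Tek without VEGF-C replicate 1 and Svep1 without PBS replicate 1. Leaving out 1 library at a time gave log2 fold changes from 0.070 to 0.29 for Angpt1, from 0.038 to 0.20 for Angpt2, from -0.048 to 0.076 for Tek, from -0.11 to -0.022 for Tie1, from 0.16 to 0.27 for Ptprb and from -0.21 to 0.086 for Svep1, and counts of all genes called from 1684 to 2906, against 2949 with all libraries. For library totals, the shift of the median of all genes by -0.19 is of the size of these moves. With upper-quartile factors the median of all genes was -0.053, against 0.0013 in the main fit, and Tek went from 0.025 to -0.030. The cause of the other moves was not tested. Of the genes called, 45.0% were higher, against 6.37% with library totals, 29.3% with upper-quartile factors and 34.4% without a variance trend. The planned count tests of edgeR and DESeq2 were not run; limma-voom on the recovered reads was run. No paired analysis was possible because the column numbers tie to no animal. Under the deposited scaling, the intervals hold changes from 0.893-fold to 1.16-fold for Tek and from 0.890-fold to 1.41-fold for Angpt1. They do not cover the choice of scaling. With library totals the log2 fold changes of Tek (-0.166) and Tie1 (-0.253) lay below their intervals, which start at -0.163 and -0.246.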
